A study of Mus musculus with 10 samples.

Results

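Reg proteins and antimicrobial proteins of neutrophil granules were followed as 8 genes, Reg1, Reg2, Reg3b, Reg3g, Lcn2, Ltf, Camp and Ngp, out of 18193 genes on the arrays. The genes were taken by name, and every probe set that carries only the symbol of that gene was read, which gave 9 probe sets (Reg3b has 2) of 45037. Levels below the median of an array, which lay between 2.82 and 2.94 on the log2 scale, are pointed out, since array background weighs heavily on such values. The groups were PSI-F grafts (rat pancreatic islets and cultured mouse skin fibroblasts in a plasma-based scaffold), PSI grafts (the same without fibroblasts) and subcutaneous biopsies of non-transplanted Diabetic and Control mice. Grafts were removed on days 1, 3, 7 and 10 and the biopsies stand for day 0, with 1 array per condition and 10 arrays in all. All mice were male, immunodeficient Swiss nu/nu (nude) animals, and the recipients and the Diabetic mouse had been made diabetic with streptozotocin, while the Control mouse was not diabetic. The islets came from Wistar rats and the fibroblasts from nu/nu mouse skin, and RNA was taken from a part of each graft, with the samples of best quality chosen for hybridization. The sources used here do not say how many mice gave the RNA of an array. The arrays carry mouse probes, so a rat transcript is seen only where it binds them, and whether a Reg or granule transcript came from the islets or from the host was not tested. Differences between 2 single arrays are therefore given without a test. Skin was well represented on every array, with Krt5 and Krt14, the keratins of basal keratinocytes, between 9.64 and 11.87, and the islet gene Ins2 lay between 7.70 and 10.60 in grafts, against 3.13 in Diabetic and 2.27 in Control.

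Reg proteins are small secreted C-type lectins. Reg1 and Reg2 were first described in regenerating pancreatic islets and acinar tissue. Reg3b and Reg3g are secreted by gut epithelium and act on bacteria. Members of the family are also made in injured skin and pancreas, where cytokines of the IL-6, IL-17 and IL-22 families induce them. Those of the IL-6 and IL-22 families do so through STAT3. Lcn2 (lipocalin-2) binds bacterial siderophores, Ltf (lactoferrin) binds iron, Camp (cathelicidin) disrupts bacterial membranes and Ngp (neutrophilic granule protein) is a cystatin-like protein, and all 4 are stored in the specific granules of neutrophils. Granule proteins are made mainly while neutrophils mature in bone marrow, whereas Lcn2 is also induced in epithelium, fibroblasts and macrophages as an acute phase gene.

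In the mouse annotation the 6 Reg genes of chromosome 6 stand in the order Reg3b, Reg3d, Reg3a, Reg2, Reg1 and Reg3g, with a pseudogene between the last pair, and Reg4 lies on chromosome 3. Reg1 and Reg3g, the members that differed on day 3, are thus neighbours at one end of the cluster. Lcn2 lies on chromosome 2, and Camp, Ngp and Ltf lie on chromosome 9. The promoters of these Reg1 and Reg3g genes are shown with that of Reg3b, whose level stayed flat, and that of Lcn2, the member with the strongest change over time. Each runs from 250 bases before to 50 after the start of the gene (RefSeq, GRCm38.p6), read 5′ to 3′ on the strand of the gene. Capitals mark matches, on either strand, to a STAT motif (TTCNNNGAA), a C/EBP motif (TTGCNNAA) or an NF-kB motif (GGG and CC with any 5 bases between them).
Reg1, chr6:78425733-78426032 (plus strand): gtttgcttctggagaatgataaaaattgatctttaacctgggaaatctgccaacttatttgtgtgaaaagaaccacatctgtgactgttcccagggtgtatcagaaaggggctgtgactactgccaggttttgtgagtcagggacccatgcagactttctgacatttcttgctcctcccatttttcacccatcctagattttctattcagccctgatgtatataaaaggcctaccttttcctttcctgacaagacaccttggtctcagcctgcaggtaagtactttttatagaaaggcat
Reg3g, chr6:78468825-78469124 (minus strand): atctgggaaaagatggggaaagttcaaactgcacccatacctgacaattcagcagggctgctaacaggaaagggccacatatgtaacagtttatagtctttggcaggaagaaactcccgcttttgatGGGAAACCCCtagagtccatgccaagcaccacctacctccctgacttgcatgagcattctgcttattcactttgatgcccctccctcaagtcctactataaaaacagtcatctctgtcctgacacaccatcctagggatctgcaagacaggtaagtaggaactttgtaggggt
Reg3b, chr6:78370635-78370934 (plus strand): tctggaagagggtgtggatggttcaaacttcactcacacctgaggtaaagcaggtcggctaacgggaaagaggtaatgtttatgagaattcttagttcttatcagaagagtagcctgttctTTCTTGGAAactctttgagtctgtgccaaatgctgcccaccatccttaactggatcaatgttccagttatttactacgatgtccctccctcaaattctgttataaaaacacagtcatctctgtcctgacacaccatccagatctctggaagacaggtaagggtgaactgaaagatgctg
Lcn2, chr2:32387690-32387989 (minus strand): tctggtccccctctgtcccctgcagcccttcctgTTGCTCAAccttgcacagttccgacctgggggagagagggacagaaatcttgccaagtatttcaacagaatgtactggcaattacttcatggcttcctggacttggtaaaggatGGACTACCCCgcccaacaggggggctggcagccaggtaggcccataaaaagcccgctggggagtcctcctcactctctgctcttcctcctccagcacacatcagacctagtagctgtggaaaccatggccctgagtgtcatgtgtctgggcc
Among 32851 promoters of this length, 8.3% held the STAT letters, 10.8% the C/EBP letters and 50.79% the NF-kB letters. The Reg1 window held none of the 3 motifs, and that of Reg3g held 1 NF-kB match, GGGAAACCCC, at position -123. The Reg3b window held 1 STAT match, TTCTTGGAA, at position -129, and its transcript was near background on all 10 arrays. Lcn2 held a C/EBP match, TTGCTCAA, at position -216 and an NF-kB match on the other strand, GGACTACCCC as printed here, at position -102. Among the other members, C/EBP matches were found in the windows of Reg2 (1), Ltf (1) and Ngp (2), and overlapping NF-kB matches in those of Ltf (3) and Camp (2). Among 55 pairs of the 7 Reg genes and the 4 granule genes, the windows of Reg3b and Reg3g aligned with 210 identical bases of 294 aligned (71.4%) and those of Reg3a and Reg3g with 184 of 249 (73.9%), the highest share. Reg1 and Reg3g shared 169 of 260 aligned bases (65%), which lay within the 55.8% to 68.2% of the 34 pairs that included a granule gene. A match of letters is a description of the window and not a sign of binding.

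Of the 80 values of the 8 members (1 probe set each, that with the highest mean level), 66 lay at or below the median of their array. Lcn2 was above it on all 10 arrays. Reg1 and Reg3g were above it in the PSI-F graft of day 3 alone, Reg2 in the PSI-F graft of day 7 alone and Ltf in the PSI-F graft of day 10 alone. Reg3b, Camp and Ngp were above it on no array, as was the case for 29.1% of all genes. Only Lcn2 therefore gave a signal clear of background across the study, and Reg1 and Reg3g gave one in a single graft.

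**Figure D1:**
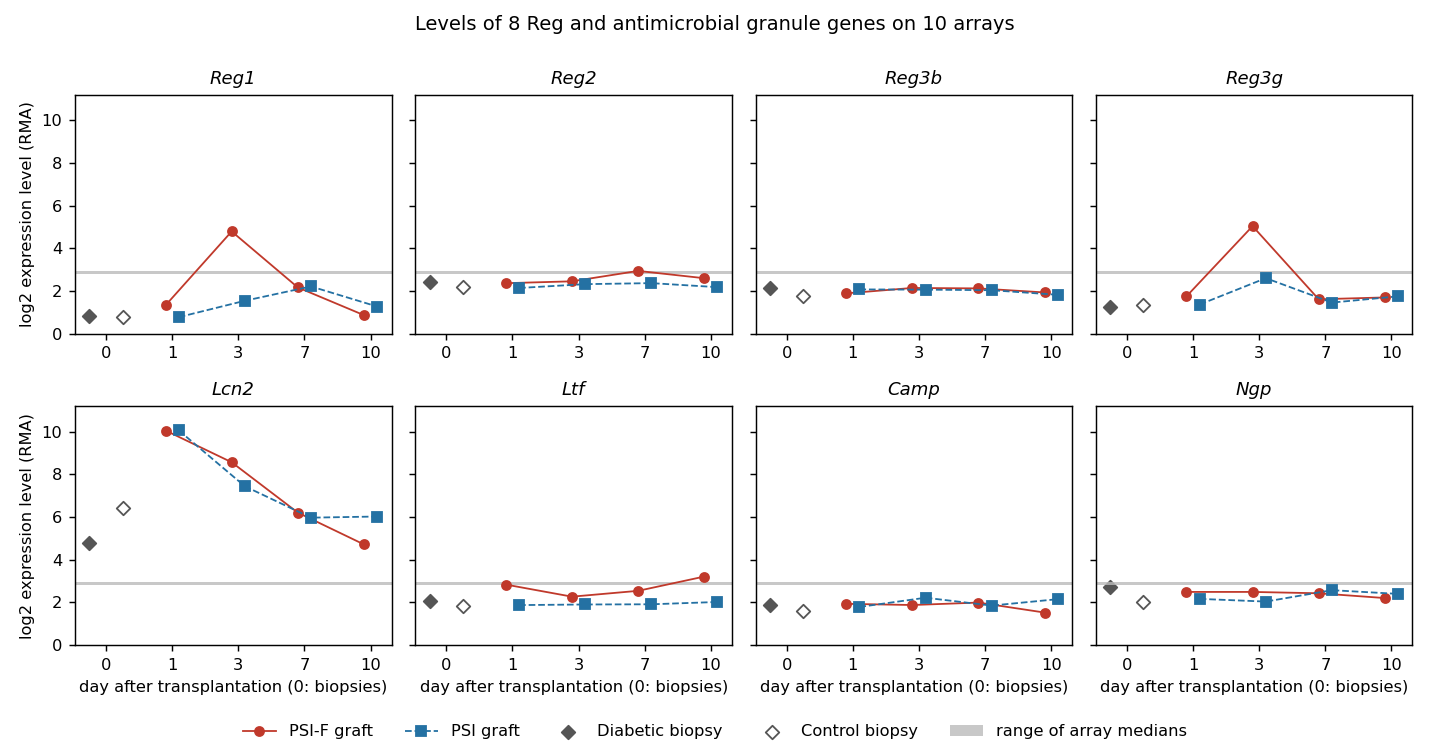
Log2 expression level (RMA, vertical axis) of the 8 members against the day after transplantation, with PSI-F grafts as circles, PSI grafts as squares and the Diabetic and Control biopsies as diamonds at day 0. Each point is 1 array, lines only join arrays of one kind of graft, and the grey band spans the array medians of 2.82 to 2.94. Reg1 and Reg3g leave the band in the PSI-F graft of day 3, and Lcn2 lies above it throughout.

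The comparison of PSI-F with PSI asked what fibroblasts added to the graft changed on each day. On day 3, the PSI-F graft had 9.50-fold more Reg1 and 5.42-fold more Reg3g than the PSI graft. These 2 of 8 members passed the 4-fold threshold of the study in that direction, which 0.159% of all genes did (0.726% in either direction). The PSI levels below these folds were themselves under the array median, so the folds depend on the floor of the array. With every level under its array median set to that median, Reg1 was 3.67-fold and Reg3g 4.36-fold higher, and 1 of 8 members passed, against 0.132% of all genes. On days 1, 7 and 10 no member was 4-fold apart in either direction, against 0.187%, 0.335% and 0.115% of all genes. At 2-fold, Ltf (higher) and Lcn2 (lower) differed on day 10, as did 0.731% of all genes. The members were chosen with earlier results of these data known, so the counts of members here and below are no independent test.

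Reg1, the founding member of the family, had levels of 1.34, 4.80, 2.18 and 0.88 in PSI-F grafts of days 1, 3, 7 and 10, of 0.78, 1.55, 2.22 and 1.28 in PSI grafts of the same days, and of 0.82 in the Diabetic and 0.77 in the Control biopsy. The PSI-F graft of day 3 stood 2.58 above the next array, the PSI graft of day 7, and the level was below the array median everywhere except in the PSI-F graft of day 3. The grafts of day 7 lay above both biopsies by 1.36 to 1.45 (log2), but still below the median.

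Reg3g, which binds peptidoglycan of Gram-positive bacteria, had levels of 1.76, 5.05, 1.62 and 1.71 in PSI-F grafts of days 1, 3, 7 and 10, of 1.37, 2.61, 1.47 and 1.76 in PSI grafts, and of 1.25 in Diabetic and 1.36 in Control. Day 3 was also the highest PSI graft, 1.35 above Diabetic and 1.25 above Control, though below the median of its array. The PSI-F graft of day 3 stood 2.44 above that PSI graft and 3.79 above Diabetic.

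Reg2, the closest relative of Reg1, ranged only between 2.15 and 2.95, with 2.95 in the PSI-F graft of day 7. The PSI-F graft had the higher level on all 4 days, by 0.13 to 0.57, as it did for 6.6% of all genes. The PSI-F and PSI levels overlapped. Reg3b, which stands at the other end of the cluster, lay between 1.79 and 2.15 on its brighter probe set and between 0.54 and 0.97 on the other, and both probe sets were below the median on every array. Their PSI-F minus PSI differences had the same sign on day 3 alone, where they were 0.08 and 0.11. The remaining genes of the family, Reg3a, Reg3d and Reg4, were also below the median on every array, at 0.81 to 1.33, 1.16 to 1.91 and 0.94 to 1.40. Of the 7 Reg genes, then, 2 were at least 2-fold higher in the PSI-F graft of day 3, as were 0.989% of all genes, and none was lower. Their median difference was 0.21, against -0.00 over all genes.

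**Figure D2:**
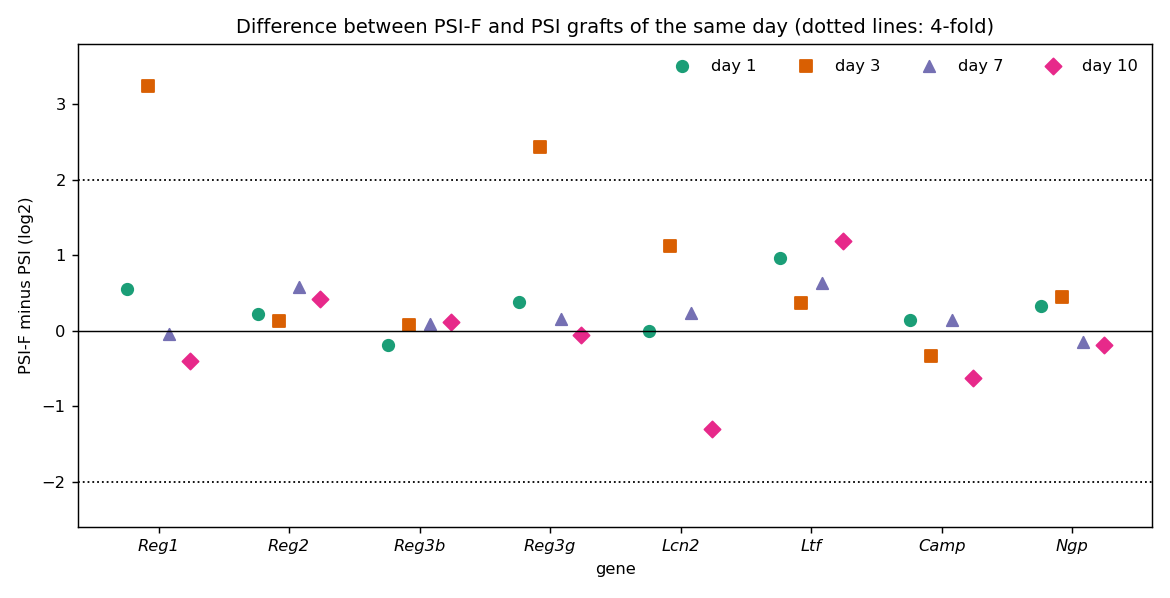
Difference between the PSI-F and the PSI graft of the same day (log2, vertical axis) for each member, with 1 point per day and dotted lines at 4-fold. The day 3 points of Reg1 (3.25) and Reg3g (2.44) pass the line and the largest difference of Lcn2 in either direction is -1.31, on day 10.

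Only 5 of 18193 genes (0.0275%) were 4-fold or more above each of the other 9 arrays in the PSI-F graft of day 3. They were Reg1, Reg3g, Il6 (a cytokine that signals through STAT3), Cxcl5 (a chemokine that attracts neutrophils) and Olr1 (a scavenger receptor for oxidized lipoprotein). Il6 had a level of 6.47 there and of 4.06 on the next array, Cxcl5 8.54 and 6.52, and Olr1 4.50 and 2.48. Over all arrays 25 genes stood out in this way, 13 of them in the Diabetic biopsy. With the array median as a floor, the lead over the next array was 3.62-fold for Reg1 and 4.31-fold for Reg3g. Cxcl5 and Olr1 were named after their values were seen.

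**Figure D3:**
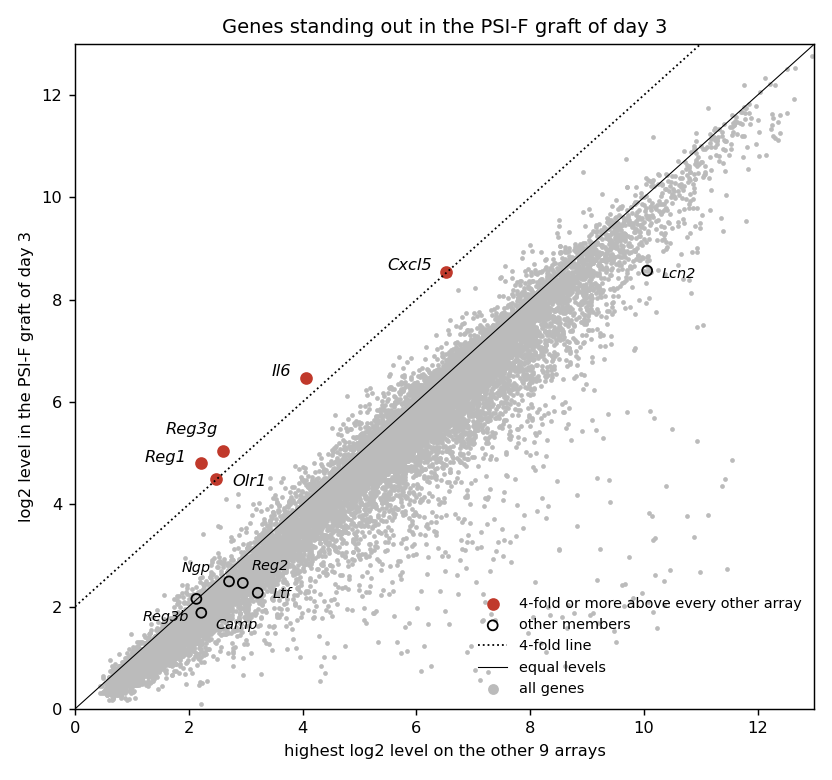
Log2 level in the PSI-F graft of day 3 (vertical axis) against the highest level on the other 9 arrays (horizontal axis) for 18193 genes in grey. The 5 filled points at or above the dotted 4-fold line are Reg1, Reg3g, Il6, Cxcl5 and Olr1, and open circles are the other 6 members, which lie near or below the line of equal levels.

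The genes with the most similar profile were looked for among 9265 genes with a level of at least 5 on 1 or more arrays. Akap7, an anchor protein of protein kinase A, followed both Reg1 (Pearson r = 0.950 over 10 arrays) and Reg3g (r = 0.950), and Alox5, the 5-lipoxygenase of leukotriene synthesis in leukocytes, followed Reg3g (r = 0.958). The others were 1700017B05Rik (0.910) and Tusc1 (0.906) for Reg1 and Ptpre (0.919) for Reg3g. Reg1 and Reg3g had r = 0.887 with each other. These correlations share the arrays and rest largely on the PSI-F graft of day 3, and are given as a description.

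Cytokines known to induce Reg genes or Lcn2 were followed in the same grafts. Il6 had levels of 3.12, 6.47, 1.996 and 1.14 in PSI-F grafts of days 1, 3, 7 and 10, of 4.06, 3.76, 2.16 and 2.94 in PSI grafts, and of 0.66 in Diabetic and 1.66 in Control. On day 3 it was 2.71 higher in PSI-F, and Il1b, an inflammatory cytokine, was 2.30 higher, with 8.04 in PSI-F against 5.74 in PSI. On day 1 Il1b was at 7.03 in PSI-F and 7.78 in PSI, and Reg1 and Reg3g were below the array median in both grafts. Osm, a cytokine of the IL-6 family, was 1.16 higher (4.55 and 3.40) and Csf3, the growth factor of neutrophils, 1.01 higher, although both Csf3 levels were below the median (2.62 and 1.61). In all, 4 of 8 cytokines were at least 2-fold higher and none lower, with a median difference of 0.92. Over all genes 0.989% were 2-fold higher on that day. Il17a stayed below the median throughout, and Il22 was not analysed here. Of 9 receptor genes, 1 was 2-fold higher in PSI-F on day 3, the neutrophil receptor Csf3r (7.02 and 5.68), and Osmr, Il1r1 and Il17ra differed by 0.73, 0.65 and 0.65. Of 8 regulators, 1 was 2-fold higher, Socs3, a feedback inhibitor and target of STAT3 (9.04 and 7.80), while Stat3 itself differed by 0.38. Extl3, described as a receptor of Reg proteins, differed by 0.21 on day 3 and ranged only between 5.70 and 6.25 over all arrays. The part of these cytokines in the Reg1, Reg3g and Lcn2 levels was not tested.

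Some lists of cell type markers also differed between the grafts of day 3, and others did not. Of 8 neutrophil markers, 5 were at least 2-fold higher in the PSI-F graft (0.989% of all genes), with a median difference of 1.42. The log2 of the summed level of these markers was 11.53 in PSI-F and 10.30 in PSI, and on day 1 it was 11.53 and 11.83. Of 8 monocyte and macrophage markers, 1 was 2-fold higher, Cd14 (8.03 and 6.08), with a median of 0.30. Of 7 keratinocyte genes, 4 were 2-fold higher, led by the wound keratins Krt6b (10.74 and 6.05) and Krt16 (9.35 and 5.89), with a median of 1.94. These keratins were not high in that graft alone. The Control biopsy had 9.64 for Krt6b, 9.25 for Krt16 and 11.4 for Krt6a, against 10.5 for Krt6a in the PSI-F graft. Reg1 (0.77) and Reg3g (1.36) were below the array median in that biopsy. All 7 hair follicle genes were 4-fold or more lower, with a median of -6.21, where 103 of all 18193 genes were that much lower. Of 14 genes of the exocrine pancreas, none was 2-fold apart on day 3 and 8 were below the median on every array, among them Cpa1, Cel, Clps and Spink1. Cela1, an elastase of pancreatic acini, was above the median on all 10 arrays and highest in the PSI-F graft of day 3, with 5.14 against 4.35 in PSI, and it was also 1.08 higher in PSI-F on day 7. Prss2 and Cela3b were above the median on all 10 arrays too, biopsies included. On day 3 they had 3.78 and 3.31 in PSI-F, against 3.81 and 3.79 in PSI. For the 14 genes the log2 of the summed level was 6.64 in PSI-F and 6.48 in PSI. Among islet genes, Ins2, an insulin gene, had a level of 8.67 in the PSI-F and 8.95 in the PSI graft of day 3. The part of keratinocytes and neutrophils in the Reg1 and Reg3g levels was not tested, and more cells of a type cannot be told apart from more RNA per cell in bulk tissue.

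Lcn2 was highest on day 1 and lower on each later day in PSI-F grafts. Its levels were 10.05, 8.57, 6.21 and 4.72 in PSI-F grafts of days 1, 3, 7 and 10, 10.06, 7.44, 5.97 and 6.02 in PSI grafts, and 4.79 in the Diabetic and 6.41 in the Control biopsy. The 4 grafts of days 7 and 10 all lay below the 4 grafts of days 1 and 3, as did 6.53% of all genes. Between PSI-F and PSI there was no difference on day 1 (0.00), PSI-F was higher by 1.13 on day 3 (2.18-fold) and by 0.24 on day 7, and it was lower by 1.31 on day 10, with a PSI-F over PSI ratio of 0.404.

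Against the Diabetic biopsy, Lcn2 was 38.5-fold higher in both grafts of day 1. It was the only member past 4-fold on day 1, where 2.16% of all genes in the PSI-F graft and 2% in the PSI graft were 4-fold higher. On day 3 it was 13.7-fold higher in PSI-F and 6.27-fold higher in PSI. In the PSI-F graft of day 3, 3 of 8 members passed (Reg1 15.8-fold, Reg3g 13.9-fold and Lcn2), against 2.95% of all genes, and in the PSI graft 1 of 8, against 2%. The Diabetic levels of Reg1 and Reg3g were below the array median, and with that median as a floor they were 3.95-fold and 4.69-fold higher, so that 2 of 8 passed, against 2.56% of all genes. On days 7 and 10 no member passed in either graft, while 2.17% and 2.19% of all genes were that much higher in the PSI-F and the PSI graft of day 7, and 1.1% and 1.3% in those of day 10. At 2-fold, Lcn2 and Reg3g passed in the PSI graft of day 3 (11.4% of all genes in either direction), Lcn2 and Reg1 in both grafts of day 7 (14% in PSI-F and 12.8% in PSI), Ltf in the PSI-F graft of day 10 (10.1%) and Lcn2 in the PSI graft of day 10 (9.82%). The Reg3g and Reg1 levels of these grafts were themselves below the array median. The Diabetic level of Ltf was below it too. These ratios share the Diabetic array. Its Lcn2 level was 1.62 below that of Control, and against Control the grafts of day 1 were 12.5-fold higher, that of day 3 4.45-fold in PSI-F and 2.04-fold in PSI, and the 4 later grafts were lower by 0.20 to 1.70. No member was 4-fold apart from Control in the PSI graft of day 3, as 1.71% of all genes were.

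The change of Lcn2 with time was tested with limma over all 45037 probe sets, with the days standing in for replicates. Lcn2 was lower on days 7 and 10, at 5.73 ± 0.68, than on days 1 and 3, at 9.03 ± 1.27 (SD, n = 4 grafts each), a difference of -3.30 (SE 0.61) with an adjusted p = 0.0673, which missed the threshold of 0.05. In that comparison 0.377% of probe sets passed lower and 0.42% in either direction, and no member did. Without the PSI graft of day 3 the adjusted p was 0.0228, and without any other single graft it lay above the threshold. Arrays of days 7 and 10 also differed technically, since 12 of 24 poly-A control probe sets were brighter on all 4 of them than on any other array, and this cannot be told apart from the day.

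Of 8 neutrophil markers, 1 (S100a8) passed as lower on days 7 and 10 and none as higher, with a median difference of -1.93. Over all probe sets, 0.377% passed as lower. Il1r2, a decoy receptor of IL-1, averaged 6.20 on days 7 and 10 and 6.94 on days 1 and 3. S100a8 and S100a9, the subunits of calprotectin, had the profiles most like that of Lcn2 among 9265 genes (r = 0.978 and 0.973 over 10 arrays), followed by Ciao2b (0.968). S100a8 had levels of 10.59, 10.30, 8.12 and 6.87 in PSI-F grafts of days 1, 3, 7 and 10, of 10.78, 9.52, 8.08 and 7.86 in PSI grafts, and of 6.67 in Diabetic and 7.95 in Control. It fell by 2.57 in the late grafts relative to the early ones (SE 0.35, adjusted p = 0.0364), whereas S100a9, with -3.16 (SE 0.63), had an adjusted p = 0.0775. With 1 graft left out, S100a8 passed only without the PSI graft of day 3 and missed the threshold in the other 7 fits, with an adjusted p of up to 0.145. It was also lost where the probe sets of each gene were averaged. The log2 of the summed level of 8 neutrophil markers was between 8.25 and 9.22 on days 7 and 10, between 10.30 and 11.83 on days 1 and 3, and 8.32 and 8.83 in the Diabetic and Control biopsies. Among these markers, Cxcr2, a chemokine receptor of neutrophils, was below the median on every array, and Ly6g and Retnlg were not analysed here. The part of the number of neutrophils in the Lcn2 level was not tested.

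Among 12 genes of specific granules, 2 passed as lower on days 7 and 10 and none as higher, and the median difference was -0.81. Of all probe sets, 0.377% passed as lower. Chil3, a chitinase-like protein of neutrophils and macrophages, fell by 5.52 (SE 0.64, adjusted p = 0.0245), and Mmp8, neutrophil collagenase, by 2.38 (SE 0.34, adjusted p = 0.0372). Chil3 had levels of 8.86, 8.93, 3.41 and 2.15 in PSI-F grafts of days 1, 3, 7 and 10, against 8.60, 5.67, 2.94 and 1.46 in PSI grafts. It was 3.25 higher in PSI-F on day 3, as Cd177 was by 1.47 and Mmp8 by 1.29. With Lcn2, 4 of 12 were 2-fold higher and none lower, where 0.989% of all genes were 2-fold higher. Itgam, a subunit of the integrin Mac-1, also passed as lower on the late days (-2.83, SE 0.32, adjusted p = 0.0238). These calls rested on single grafts too. Mmp8 passed only without the PSI graft of day 3 and was lost in 7 of 8 fits with 1 graft left out (adjusted p up to 0.123), and also where probe sets were averaged. Chil3 was lost in 6 (up to 0.109), all but those without the PSI grafts of days 3 and 7, and with an intensity trend and robust prior. Itgam was lost in 4 (up to 0.113), those without either graft of day 1, the PSI-F graft of day 3 or the PSI graft of day 10. Of the 4 matched genes of azurophil granules (Mpo, Elane, Prtn3 and Ctsg), none passed, and their levels lay between 1.62 and 3.68 on all arrays.

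**Figure D4:**
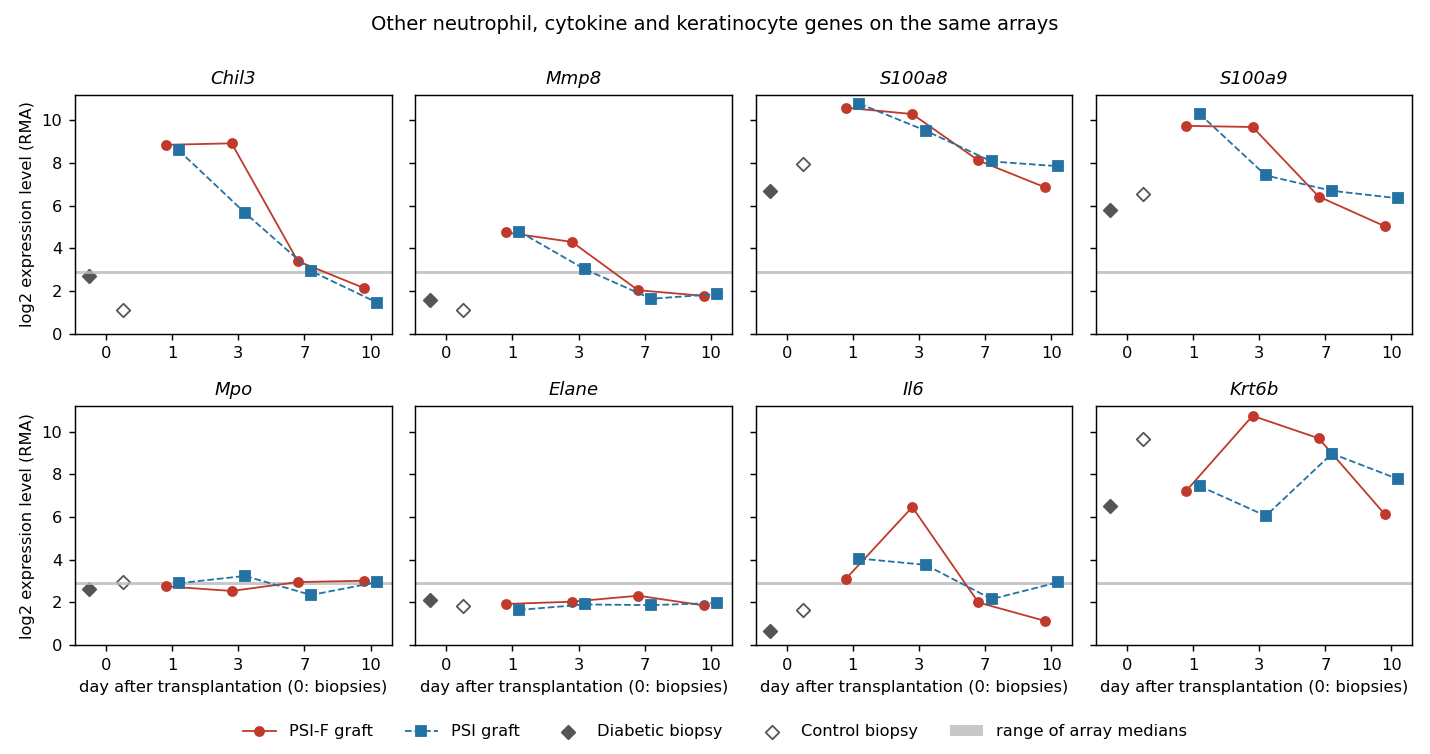
Log2 expression level of other genes on the same arrays and axes as the plot of the members, with granule genes Chil3 and Mmp8, the calprotectin genes S100a8 and S100a9, the azurophil genes Mpo and Elane, the cytokine Il6 and the keratin Krt6b. Chil3, Mmp8, S100a8 and S100a9 are lower in the 4 grafts of days 7 and 10 than in those of days 1 and 3, Mpo and Elane stay near or below the grey band, and Il6 (6.47) and Krt6b (10.74) are highest in the PSI-F graft of day 3.

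The 3 other granule members did not follow Lcn2. Ltf had levels of 2.84, 2.27, 2.54 and 3.21 in PSI-F grafts of days 1, 3, 7 and 10, of 1.87, 1.90, 1.91 and 2.02 in PSI grafts, and of 2.07 in Diabetic and 1.83 in Control. The 4 PSI-F grafts all lay above the 4 PSI grafts, which 1.09% of all genes did, but only the PSI-F graft of day 10 was above the array median. With the day as a block, Ltf was 0.79 higher in PSI-F (SE 0.15, adjusted p = 0.751 by limma), and no probe set of 45037 passed in that comparison (2749 had an unadjusted p under 0.05). Camp lay between 1.52 and 2.22 and Ngp between 1.996 and 2.71 on all arrays, below the median throughout. Lcn2 was uncorrelated or weakly correlated with these 3 genes over the 10 arrays (r = -0.08 with Ltf, 0.19 with Camp and -0.15 with Ngp), which at such levels is no more than a description.

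Averaged over days, no member passed between PSI-F and PSI. Reg1 was 0.84 higher in PSI-F (2.30 ± 1.75 and 1.46 ± 0.60, SD, n = 4 grafts each, adjusted p = 0.754 by limma) and Reg3g 0.73 higher (2.53 ± 1.68 and 1.80 ± 0.56, adjusted p = 0.751), and without day 3 these differences were 0.04 and 0.16. Lcn2 differed by 0.01 (7.39 ± 2.38 and 7.37 ± 1.91, adjusted p = 0.992), and by -0.36 without day 3 and 0.45 without day 10. Whether the PSI-F minus PSI difference itself changed between early and late grafts was tested with an interaction term, and no probe set passed (636 had an unadjusted p under 0.05). Reg1 and Ngp were higher in PSI-F on both early days and lower on both late days, with interaction terms of -2.13 (SE 1.44) and -0.56 (SE 0.21), each at an adjusted p = 1.00. All levels of both genes, except that of Reg1 in the PSI-F graft of day 3, were below the array median. With 1 array left out, the term of Reg1 lay between -3.86 (without the PSI-F graft of day 1) and -0.40 (without that of day 3), and the term of Ngp between -0.67 and -0.45.

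Between the 8 grafts and the 2 biopsies 671 probe sets passed as higher and 304 as lower (2.16%), and no member was among them. That fit pooled the Diabetic and Control biopsies, and likewise both kinds of graft over all days, so diabetes and day were not separated. Lcn2 was 1.78 higher in grafts (SE 1.29, adjusted p = 0.537), and Reg1 and Reg3g were 1.09 and 0.86 higher (adjusted p = 0.557 and 0.638). The Lcn2 difference was 0.97 without Diabetic and 2.59 without Control, and without the PSI-F graft of day 3 those of Reg1 and Reg3g were 0.67 and 0.45. Genes that did pass included Cybb and Cyba, the subunits of the phagocyte NADPH oxidase that sits in specific granule membranes and in macrophages (3.23 and 2.76 higher, adjusted p = 0.00317 and 0.0048), and 4 of 8 monocyte and macrophage markers. Slc11a1, a metal transporter of phagocyte vesicles, was 3.50 higher (adjusted p = 0.00535), and the lysozyme genes Lyz1 and Lyz2, near-identical copies whose probes may share transcripts, were 2.70 and 3.44 higher. Defb1, a beta-defensin of epithelium, fell to 4.83 to 6.09 in grafts, against 7.21 in Diabetic and 6.77 in Control (-1.35, adjusted p = 0.031). Without the Diabetic biopsy Cybb, Cyba and Slc11a1 missed the threshold (adjusted p = 0.0743, 0.0897 and 0.0897), as did the 4 macrophage markers and Defb1 (up to 0.239), whereas Lyz1 and Lyz2 passed with any 1 array left out. Defb1 was also lost without the PSI-F graft of day 1 or the PSI graft of day 7, and the macrophage marker Csf1r without the PSI graft of day 3 or day 7, or with the grafts of days 1 and 3 alone. Slpi, an antiprotease of skin and mucosa, passed in none of the comparisons, with levels of 9.35 in the PSI-F and 7.05 in the PSI graft of day 3.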

How the data were processed

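RNA of 10 conditions was hybridized to Affymetrix mouse genome arrays, 1 per condition. The authors deposited 1 log2 value per probe set, computed by RMA. Their processing notes list affy 1.36.0 and R 2.15.0. Array number limits the precision. RMA pulls low values together, so differences near the array median are less reliable.

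Of 45101 probe sets, 64 controls were left out. Of the rest, 34945 carry 1 symbol, 932 several and 9160 none. Where a gene had several probe sets, that of the highest mean over the 10 arrays stood for it. Tests used limma 3.58.1 in R 4.3.3 (lmFit, eBayes, Benjamini-Hochberg, threshold 0.05), with residual degrees of freedom of 3 to 8, and days standing in for replicates. A day block was used for PSI-F minus PSI and the kind of graft for late minus early. Tables were made with pandas 2.3.3 and numpy 2.4.6 in Python 3.11.15, and plots with matplotlib 3.10.9. The limma steps were tested on simulated data.

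Named genes were the members, the Reg family, up to 4 genes of each list by mean level and by day 3 difference, and the 3 genes most like each member. Other examples were picked after their values were seen. Members and lists were chosen with earlier results of these data known. Listed genes with no probe set of their own symbol were not analysed here.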

Additional observations from a re-analysis of the deposited data

How the results depend on the processing

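The threshold decided several counts of members. At 2-fold, 2 members differed between PSI-F and PSI on day 10 (none at 4-fold), as did 0.731% of all genes. Against Diabetic, 2 members passed at 2-fold in the PSI graft of day 3 and in both grafts of day 7, and 1 in each graft of day 10. In those grafts 9.82% to 14% of all genes passed, and the Reg1 and Reg3g levels counted there were below the array median. With Control as baseline no member passed in the PSI graft of day 3. The other counts of members between grafts, or against Diabetic, stayed within 1.5 times under a filter on dim genes, the mean of all probe sets and cyclic loess. Only Reg3b has more than 1 probe set, so the mean of probe sets could not change the value of any other member. Member differences were also recomputed with the mean of probe sets, with cyclic loess and with each array centred on its median. Of these 96, 92 moved by less than 1 residual SD and 4, all of Reg3b, by more. The residual SD was that of the PSI-F minus PSI fit, and for Reg1 and Reg3g it includes their own day 3 difference. The 92 therefore say little of how stable the values are. In alternatives chosen after seeing the data, the lead of the PSI-F graft of day 3 was 2.58 to 2.62 for Reg1 and 2.44 to 2.48 for Reg3g, but 1.86 and 2.11 with levels under the array median set to it, where 1 member passed between PSI-F and PSI on day 3.

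Lcn2 passed as lower on days 7 and 10 without the PSI graft of day 3 (-3.93, adjusted p = 0.0228) and with no covariate (-3.30, adjusted p = 0.0372), so that 1 member was called there. Leaving out each graft in turn gave 0 to 1 called members and 1 to 260 called probe sets in that comparison, and an Lcn2 difference of -3.93 to -2.89. With the mean of probe sets of a gene 22 of 18193 genes passed, and with no covariate 407 probe sets. The cause was not tested. In the PSI-F minus PSI comparison no member passed in any alternative, and leaving out each array gave 0 to 2 called probe sets (2 without both arrays of day 1, since with the day as a block 1 array of a pair carries nothing). Grafts minus biopsies called 15 (without Diabetic) to 4371 (without Control) probe sets with 1 array left out, 482 genes with the mean of probe sets, and no member in any alternative. The interaction called 0 to 1 probe sets with 1 array left out. Beside the day block of the PSI-F minus PSI comparison, no paired analysis was possible because each condition has 1 array and the groups share only replicate number 1.

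Residual degrees of freedom were few, and every member except Lcn2 lay below the array median on at least 9 of 10 arrays, Reg1 and Reg3g included, which limits what these arrays can show of them.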
